A study of Mus musculus with 4 samples.

Results

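The 6 genes described here encode enzymes and carriers of ketone body metabolism: Bdh1, Bdh2, Acat1, Oxct1, Slc16a1 and Slc16a6. They were chosen by symbol, and each had 1 row in both of the authors' deposited tables, which hold 25522 rows without and 26085 rows with tetracycline (27425 genes in either, 24182 in both). RNA came from small-intestinal crypts of male C57BL/6J mice aged 9 weeks, shaken off the gut wall in a chelating buffer and digested to single cells. The 4 groups were fed mice and mice fasted for 24 hours without tetracycline, and fed mice and mice fasted for 24 hours after 21 days of tetracycline. The labels give 1 sample in each group and name no mutant allele, transgene or other agent. The study asked whether tetracycline, an antibiotic used here to remove what the labels call AKK, changes the response of the crypts to fasting. The depletion itself was not analysed here.

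Ketone bodies carry energy from fatty acids to other tissues when food is short. In mitochondria, acetyl-CoA from fatty acid oxidation is built into acetoacetate, and BDH1 reduces acetoacetate to beta-hydroxybutyrate. Cells that burn ketone bodies turn beta-hydroxybutyrate back into acetoacetate. Succinyl-CoA:3-oxoacid CoA transferase (SCOT, the product of Oxct1) then activates acetoacetate, a step that liver lacks. Ketone bodies cross membranes through monocarboxylate carriers.

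Of the 6 genes, Oxct1 was lower in fasted mice in both comparisons, and it alone passed the authors' test, without tetracycline. Without tetracycline Bdh1 was at 61.2% of its fed level and the carrier gene Slc16a6 at 189%, and neither passed. Acat1 was abundant and near its fed level in both comparisons, Slc16a1 was so without tetracycline, and Bdh2 was scarce. No difference between the fasting changes with and without tetracycline passed the test for any of the 6 genes. All changes are given as fasted over fed. No column of the tables states that direction, and it was inferred from the names of the tables, which put fasting first. Were it the other way round, the fed and fasted names of all libraries and all directions given here would swap, and the fasted mean without tetracycline would be 1.83 times the fed one for Oxct1 (2.40 times with tetracycline), 1.63 times for Bdh1 and 0.528 times for Slc16a6.

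The authors' deposited means proved to be averages over 4 libraries per table, 2 fasted and 2 fed, and the whole counts behind all 12 rows of the 6 genes could be recovered. A library cannot be tied to a labelled sample beyond its feeding state, so each value is shown singly, as counts divided by the library's size factor (normalized counts), with no standard deviation. On each side, number 1 was given to the library whose size factor was larger. Nothing says whether the libraries of a side came from separate mice, so the authors' p-values may measure technical spread alone. The means sum to 65863261 normalized counts per average library without and 65327199 with tetracycline, and the largest size factor was 1.17 and 1.75 times the smallest. The authors' standard error (SE) had a median of 0.28 without and 0.41 with tetracycline on the log2 scale, over genes with a mean of at least 500, so the second table resolves smaller changes less well.

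The 2 fasted tetracycline libraries stood apart from each other in markers of the crypt base and of blood cells. Lgr5, a stem cell marker, had 1515 and 399 normalized counts in fasted libraries 1 and 2 with tetracycline, against 391 and 722 in fed ones. Mmp7, a Paneth cell protease, had 18214 and 4645 against 2574 and 3428. The summed decoded lymphocyte markers (5 of 6 genes) had 17773 and 3137 against 54085 and 14345. Without tetracycline the fasted pair was closer, with Lgr5 at 1003 and 1168 and Mmp7 at 11508 and 13541.

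Marker lists of the crypt and of other cell types were read from the authors' deposited table without tetracycline, where 2.27% of all tested genes were called. Of 5 Paneth markers, 5 were higher in fasted mice and 4 of them called, with summed rebuilt means of 617267 normalized counts in fasted and 320952 in fed mice. Of 6 lymphocyte markers, 6 were lower and 2 called, with 5713 and 11138 summed normalized counts in fasted against 13070 and 16344 in fed libraries. Myeloid markers were lower in 5 of 5 (1 called), stromal and smooth muscle markers in 5 of 6 (2 called), erythrocyte markers in 3 of 3 listed (3 called), and proliferation markers in 5 of 5 (0 called). Stem cell markers were higher in 3 of 5 (0 called), absorptive enterocyte markers in 6 of 8 (Fabp1 called) and goblet markers in 2 of 5 (Agr2 called, lower). Pancreatic acinar markers were lower in 5 of 5 (0 called), but that count rests on fed library 2, which held 1298 summed normalized counts against 470.4 in fed library 1 and 489.8 and 617 in the fasted ones, and without it 0 of 5 were lower. Hepatocyte markers were higher in 3 of the 4 with an adjusted p (1 called, Apob, which enterocytes also make). Ttr had 394 and 681 normalized counts in fasted against 538 and 382 in fed libraries. Serpina1a had 42.2 and 33.3 against 26.8 and 25.1. Alb had 24.8 to 68.8 normalized counts per library and Fgb at most 4.59. The crypt stem cell gene Olfm4 had rebuilt means of 53690 normalized counts in fasted and 74071 in fed mice. With tetracycline 0 markers of these lists were called by the authors' DESeq2 test, and at an unadjusted p under 0.05 the lists had 4 of 6 lymphocyte, 3 of 5 myeloid, 2 of 6 stromal and 1 of 3 erythrocyte markers lower, and 2 of 8 absorptive enterocyte and 1 of 5 Paneth markers higher, against 5.34% of all genes in either direction. The part of other cell types in the results below was not tested, and in such tissue fewer cells of a type and less RNA per cell cannot be told apart.

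Oxct1 (ENSMUSG00000022186.15, mm10 chr15:4026383-4155344, plus strand) encodes SCOT, the enzyme that commits acetoacetate to oxidation. Without tetracycline it had 4347 and 3892 normalized counts in the fasted libraries and 7841 and 7215 in the fed ones. Both fasted libraries lay below both fed ones, at 54.7% of the fed mean. In the authors' deposited table the change was -0.87 on the log2 scale (SE 0.25, 95% interval -1.36 to -0.38, n = 2 libraries a side, adjusted p = 0.0271). Oxct1 was thus called lower in fasted mice by the authors' DESeq2 test. Lymphocyte markers were lower in the same libraries, as given above, and the 5 proliferation markers summed to 21202 and 26584 in fasted against 43567 and 27634 in fed libraries; their part in the Oxct1 change was not tested.

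With tetracycline Oxct1 had 3444 and 3953 normalized counts in the fasted and 8539 and 9207 in the fed libraries. The groups again did not overlap, and the fasted mean was 41.7% of the fed mean. The change of -1.26 (SE 0.36, 95% interval -1.96 to -0.56) was not called in the authors' deposited table, where its adjusted p was 0.0605. By p it ranked 122 in that table and 326 in the one without tetracycline. Both fasted libraries with tetracycline held less Oxct1 than either fed library, and leaving out single libraries kept the log2 ratio of means between -1.37 and -1.17. The 5 proliferation markers summed to 28841 and 19050 normalized counts in fasted against 28287 and 44622 in fed libraries. Stem, Paneth and lymphocyte markers differed between the fasted libraries, as given above. The part of these markers in the Oxct1 change was not tested.

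Bdh1 (ENSMUSG00000046598.16, mm10 chr16:31422280-31458901, plus strand) encodes the mitochondrial beta-hydroxybutyrate dehydrogenase, which works in both directions between acetoacetate and beta-hydroxybutyrate. Its libraries without tetracycline held 7222 and 7612 normalized counts after fasting and 11927 and 12314 when fed. The pairs were tight and did not overlap, and the fasted mean was 61.2% of the fed mean. The change of -0.71 (SE 0.24, 95% interval -1.18 to -0.23) was not called in the authors' deposited table (unadjusted p = 0.00347, adjusted p = 0.104).

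With tetracycline Bdh1 had 7183 and 8976 normalized counts in the fasted and 10213 and 13008 in the fed libraries. Fasted libraries were again the lower ones, with a wider gap inside each pair. The authors' deposited table gave -0.52 (SE 0.39, 95% interval -1.28 to 0.23, adjusted p = 0.9999). Its interval holds both no change and the change seen without tetracycline.

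The 200 bases that lie 250 to 51 bases before an annotated start of the 2 enzyme genes that were lower in fasted mice, Oxct1 (mm10 chr15:4026178-4026377) and Bdh1 (chr16:31422047-31422246, the upstream one of 2 starts), are shown with those of the carrier gene Slc16a1 (chr3:104638414-104638613), which was near its fed level without tetracycline. All 3 are on the plus strand and come from RefSeq on GRCm38.p6. Capitals mark the 1 searched motif found, an E box.
Oxct1: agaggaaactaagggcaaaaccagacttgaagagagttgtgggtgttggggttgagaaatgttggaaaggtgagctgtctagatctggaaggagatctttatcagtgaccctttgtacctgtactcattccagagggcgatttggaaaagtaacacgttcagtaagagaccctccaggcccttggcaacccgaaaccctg
Bdh1: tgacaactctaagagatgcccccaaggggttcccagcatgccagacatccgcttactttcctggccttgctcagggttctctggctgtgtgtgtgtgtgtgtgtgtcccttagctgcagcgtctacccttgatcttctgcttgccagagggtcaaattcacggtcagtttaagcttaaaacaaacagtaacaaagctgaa
Slc16a1: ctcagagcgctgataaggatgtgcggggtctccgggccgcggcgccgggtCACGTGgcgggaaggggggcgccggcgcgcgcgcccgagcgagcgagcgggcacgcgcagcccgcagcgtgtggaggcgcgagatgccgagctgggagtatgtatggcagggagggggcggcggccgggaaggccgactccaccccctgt
The Slc16a1 window holds 76% G and C and 30 CpG pairs, the Oxct1 window 48% and 3, and the Bdh1 window shown 50% and 3. The table holds a second Bdh1 start, whose window (chr16:31428503-31428702) holds 59% and 5. Over the same window of 32851 RefSeq promoters the median was 51.5% and 4, and the 95th percentile 73.5% and 24. Of the 3 windows shown, only that of Slc16a1 lies in the CpG-rich tail. The Bdh2 window, which is not shown, holds 49% and 4. Motifs were searched on both strands from 250 bases before to 50 bases after each start, for Bdh1, Bdh2, Oxct1 and Slc16a1, 4 of the 6 genes, with 5 starts. The E box CACGTG, at bases 200 to 195 before the Slc16a1 start, occurs in 7.15% of all promoters of that length. The PPAR element, a direct repeat of AGGTCA with 1 base between the copies (0.0396% of promoters), the single copy AGGTCA (16.3%), the cyclic AMP element TGACGTCA (1.79%) and its core TGACG (20.8%), which the longer element contains, were not matched in these windows.

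Acat1 (ENSMUSG00000032047.6, mm10 chr9:53580522-53610382, minus strand) encodes the mitochondrial thiolase that joins or splits acetoacetyl-CoA, so it serves synthesis and use alike. Without tetracycline it had 11301 and 12327 normalized counts in the fasted and 12278 and 13194 in the fed libraries. With tetracycline the values were 11584 and 12437 in fasted and 11663 and 12968 in the fed libraries. The groups overlapped in both tables, and all 8 libraries lay within 11301 and 13194. The authors' deposited tables gave changes of -0.11 (95% interval -0.59 to 0.37, adjusted p = 0.959) and -0.04 (95% interval -0.73 to 0.66, adjusted p = 0.9999).

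Bdh2 (ENSMUSG00000028167.16, mm10 chr3:135281221-135304426, plus strand) encodes a cytosolic dehydrogenase that has also been described as acting on hydroxybutyrate. It was read from 26 and 43 counts in fasted and 33 and 64 in the fed libraries without tetracycline, and from 42 and 47 against 62 and 44 with it. After scaling, the range was 23.8 to 64.7 normalized counts over the 8 libraries, with overlap in both tables. The 95% intervals of its changes, -1.79 to 0.84 and -1.30 to 1.37 in the authors' deposited tables, are wide, and with tetracycline they hold a log2 change of 1 in either direction, which was not detectable at this depth.

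Slc16a1 (ENSMUSG00000032902.2, mm10 chr3:104638668-104658462, plus strand) encodes MCT1, a proton-coupled carrier of lactate, pyruvate and ketone bodies. Without tetracycline it had 8434 and 8183 normalized counts in the fasted and 8810 and 7207 in the fed libraries, and the fasted pair lay inside the fed range. The authors' deposited table gave 0.05 (95% interval -0.45 to 0.55, adjusted p = 0.985). With tetracycline the fasted libraries held 7781 and 8113 and the fed ones 4189 and 7465. The fasted pair was higher, and fed library 1 stood apart at 4189. The change was 0.45 (95% interval -0.42 to 1.32, adjusted p = 0.9999) in the authors' deposited table, and leaving out single libraries took the log2 ratio of means from 0.09, without fed library 1, to 0.92, without fed library 2. Fed library 1 also held the most lymphocyte marker counts, 54085 over 5 genes, whose part in this value was not tested.

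Slc16a6 (ENSMUSG00000041920.15, mm10 chr11:109450855-109473598, minus strand) encodes MCT7, a carrier known for letting ketone bodies out of liver cells. Without tetracycline it had 8219 and 4468 normalized counts in the fasted and 3205 and 3500 in the fed libraries. Both fasted libraries were higher, but they differed 1.84-fold between themselves while the fed ones differed 1.09-fold. The authors' deposited table gave 0.92 (SE 0.33, 95% interval 0.28 to 1.56), with an unadjusted p of 0.00511 and an adjusted p of 0.134, so Slc16a6 was not called. The log2 ratio of means was 0.41 without fasted library 1 and 1.29 without fasted library 2.

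With tetracycline Slc16a6 had 2357 and 8086 normalized counts in the fasted and 2861 and 2998 in the fed libraries. Fasted library 1 was the lowest and fasted library 2 the highest of the 4, 3.43-fold apart, so the groups overlapped. The change of 0.83 (SE 0.61, 95% interval -0.36 to 2.02, adjusted p = 0.9999) in the authors' deposited table rested on library 2. Without that library the log2 ratio of means was -0.31, and without library 1 it was 1.46. Library 1 is the one with more Lgr5 and Mmp7, and library 2 the one with less. Without tetracycline fasted libraries 1 and 2 had 8219 and 4468 for Slc16a6, 1003 and 1168 for Lgr5, and 11508 and 13541 for Mmp7. The part of crypt base cells in the Slc16a6 values was not tested.

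**Figure D1:**
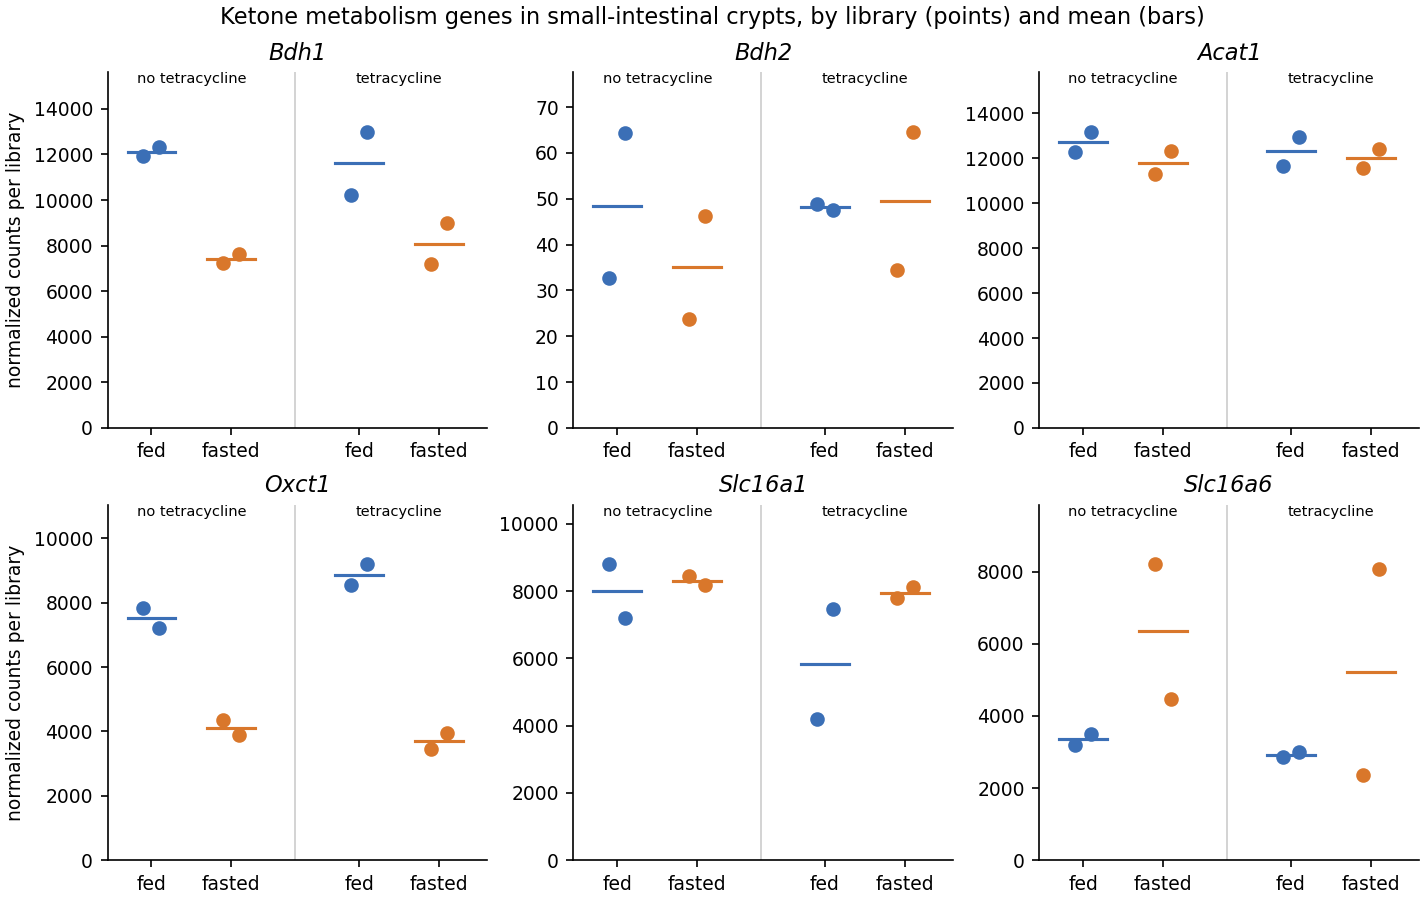
Normalized counts of the 6 genes (vertical axis, linear from 0) in each fed (blue) and fasted (orange) library without and with tetracycline; points are libraries and bars their mean. Oxct1 and Bdh1 are lower in both fasted libraries of each table, Acat1 is level, and Slc16a6 reaches 8219 and 8086 in 1 fasted library of each table.

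The library kit kept no strand, so reads from a partner on the opposite strand are not separable. In GENCODE release M21, Slc16a6 shares 1052 exonic bases (21.5% of its own) with Amz2, a protease gene of the opposite strand. It also shares 48 exonic bases (0.98%) with Arsg, an arylsulfatase gene of that strand, which had changes of 0.65 and 0.50 (adjusted p = 0.521 and 0.9999) and means of 1178 and 1117 normalized counts in the authors' deposited tables, without and with tetracycline. Amz2 itself had changes of -0.01 and 0.11 and means of 1658 and 1725 normalized counts there, and the part of either partner in the Slc16a6 counts was not tested. Bdh1 shares 533 exonic bases (13.7%) with the antisense gene Gm15743, whose mean was 26.4 and 23.8, against 9769 and 9845 for Bdh1 in the same tables. Oxct1 shares 467 (12.6%) with BC037032, which was not used here. Bdh2, Acat1 and Slc16a1 share none.

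Levels between genes were compared per kilobase of the longest coding transcript. In fed mice without tetracycline Bdh1 (3820 and 3944 normalized counts per kilobase in the 2 libraries) and Acat1 (3606 and 3875) led and overlapped. Oxct1 followed at 2223 and 2046, above Slc16a1 at 1990 and 1628, then Slc16a6 at 760 and 830, and Bdh2 at 27.9 and 54.9. In fasted mice Acat1 (3319 and 3620) stood above Bdh1 (2313 and 2438). Slc16a1 (1905 and 1849) and Slc16a6 (1948 and 1059) overlapped, and Oxct1 (1233 and 1103) lay within the Slc16a6 range. Between fed and fasted mice, Oxct1 thus went from above Slc16a1 to below it in this order. With tetracycline Oxct1 stood at 2421 and 2610 per kilobase in fed and 976 and 1121 in fasted libraries, and Slc16a1 at 947 and 1687 against 1758 and 1833.

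Counted together, 1 of the 6 genes was called without tetracycline in the authors' deposited table, where 2.27% of all tested genes were called and 1.22% were called lower. At an unadjusted p under 0.05 there were 3 of 6 (Oxct1, Bdh1 and Slc16a6), against 10.8% of all genes. The median change of the 6 was -0.29, with 4 lower, beside 0.0067 for all tested genes. It lies midway between Acat1 and the scarce Bdh2, and leaving out single libraries took it from -0.46, without fasted library 2, to -0.06, without fasted library 1, with 4 lower each time; it was -0.07 without fed library 2. With tetracycline 0 of 6 were called by the authors' DESeq2 test, against 0.600% of all genes, and 1 of 6 (Oxct1) had an unadjusted p under 0.05, against 5.34%. The median change of the 6 was then -0.0020, with 3 lower, beside -0.018 for all tested genes. Without fasted library 2 it was -0.40 with 5 lower, and without fasted library 1 it was 0.22 with 2 lower.

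**Figure D2:**
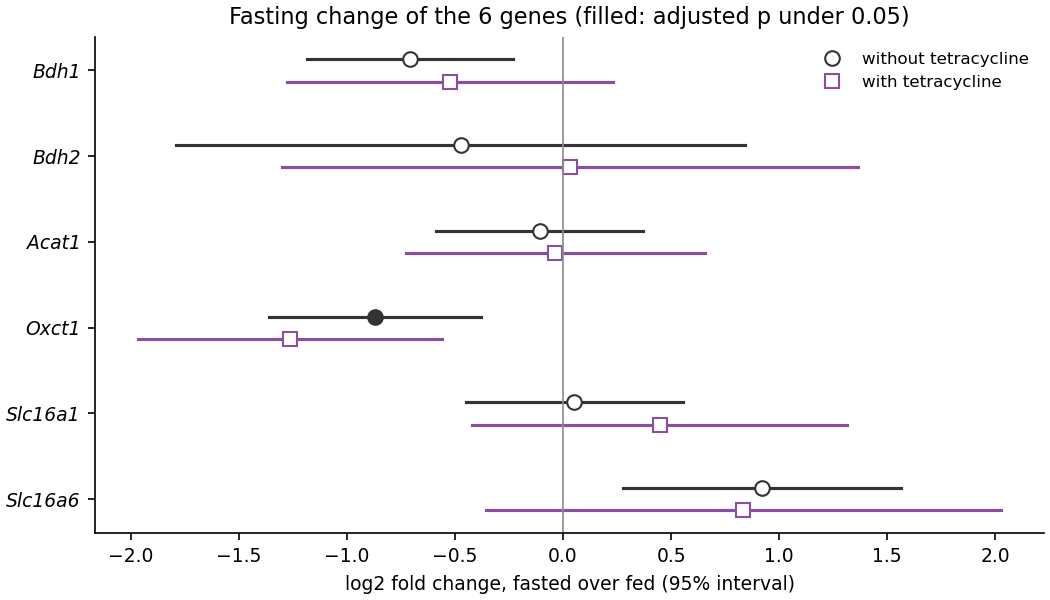
Log2 fold change of fasted over fed (horizontal axis) with its 95% interval for the 6 genes, without (black circles) and with (purple squares) tetracycline, from the authors' deposited tables; filled symbols have an adjusted p under 0.05. Oxct1 without tetracycline is the 1 filled symbol, and the intervals with tetracycline are the wider ones for each gene.

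Whether tetracycline altered the fasting change was tested per gene by dividing the difference of the authors' 2 changes by the root of their summed squared SEs (a two-sided Wald test, Benjamini-Hochberg adjusted over 17571 genes). For Oxct1 the change with tetracycline minus that without was -0.39 (SE 0.44, 95% interval -1.25 to 0.46). For Slc16a6 it was -0.09 (SE 0.69, 95% interval -1.44 to 1.27), for Bdh1 0.19 (-0.71 to 1.08) and for Acat1 0.07 (-0.77 to 0.91). Slc16a1 had 0.39 (-0.61 to 1.40) and Bdh2 0.51 (-1.37 to 2.38). By this Wald test 0 of 6 genes were called and 0 had an unadjusted p under 0.05, the smallest being 0.368 for Oxct1, where 0.0228% of all genes were called and 1.05% had an unadjusted p under 0.05. Each interval spans 0, and the narrowest, that of Acat1, runs from -0.77 to 0.91, so differences inside such a range were not detectable here. Single libraries moved several of these differences. For Slc16a6 it was -1.23 without fasted tetracycline library 2 and 0.54 without fasted tetracycline library 1. For Slc16a1 it was 0.037 without fed tetracycline library 1 and 0.87 without fed tetracycline library 2. For Bdh2 it ran from -0.066, without fed library 2 of the table without tetracycline, to 1.06, without fasted library 2 of that table. Bdh1 ran from 0.016 to 0.37 and Acat1 from -0.0022 to 0.15, while Oxct1 lay between -0.50 and -0.30 whichever library was left out.

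Levels with against without tetracycline cross tables that the authors scaled separately, so they were centred on the median gene and not tested. In fed mice the centred log2 ratio was 0.18 for Oxct1, -0.07 for Bdh2, -0.11 for Acat1, -0.12 for Bdh1, -0.25 for Slc16a6 and -0.52 for Slc16a1. In fasted mice it was 0.42 for Bdh2, 0.06 for Bdh1, -0.04 for Acat1, -0.13 for Slc16a1, -0.22 for Oxct1 and -0.35 for Slc16a6. All 12 lay inside the central 90% of 21925 genes, which ran from -0.83 to 1.24 in fed and from -0.89 to 0.81 in fasted mice. Leaving out single libraries took 3 of them outside that range. Slc16a1 in fed mice, the lowest, was -0.99 without fed tetracycline library 2 and -0.16 without fed tetracycline library 1. Bdh2 in fasted mice was 0.96 without fasted library 2 of the table without tetracycline and -0.08 without fasted tetracycline library 2. Slc16a6 in fasted mice ran from -1.49, without fasted tetracycline library 2, to 0.29, without library 1.

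The genes whose pair of fasting changes lay nearest to that of each member were sought among 9092 protein-coding genes with a mean of at least 500 in both tables, over these 2 comparisons. For Oxct1 they were Dusp6, a phosphatase acting on ERK (distance 0.014 on the log2 scale), and Oasl1 (0.075). For Bdh1 they were Snrpn (0.012) and Lmnb1 (0.013), for Slc16a6 Scarb2 (0.020) and Fzd4 (0.052), for Slc16a1 Hnrnpdl and Atad3a, for Bdh2 Mrpl14 and Atpif1, and for Acat1 Themis3 and Aen. Within a distance of 0.1 there were 5 genes for Slc16a6, 6 for Oxct1, 39 for Bdh1, 129 for Bdh2, 190 for Slc16a1 and 626 for Acat1. The list is a description over 2 comparisons.

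Other genes that make or use acetoacetyl-CoA, acetoacetate or acetate were described by 8 genes, of which 5 carried an adjusted p in each table. None of these, 0 of 5, was called in the authors' deposited DESeq2 tables, and at an unadjusted p under 0.05 there were 2 of 5 lower (Aacs and Acat2) without and 0 with tetracycline. Over all genes 2.27% were called without and 0.600% with tetracycline, and 10.8% and 5.34% had an unadjusted p under 0.05. Aacs, which activates acetoacetate in the cytosol for lipid synthesis, had changes of -0.57 and then -0.38 in the authors' deposited tables, first without and then with the antibiotic (adjusted p = 0.340 and 0.9999). The cytosolic thiolase gene Acat2 had -0.68 and -0.22 there (adjusted p = 0.184 and 0.9999). With tetracycline Aacs was at -0.14 and Acat2 at -0.07 without fasted library 2, and at -0.67 and -0.39 without fasted library 1. The acetate-activating genes Acss1 and Acss2 lay between -0.02 and 0.19. The median of the 5 was -0.48 without and 0.0063 with tetracycline. The first is the value of the thiolase gene Acat3, which had 48.6 and 109 normalized counts in the fasted and 51.6 and 168 in the fed libraries, and the median was -0.01 without fasted library 1 and -0.14 without fed library 2. With tetracycline it was below 0 whichever library was left out, from -0.15 to -0.04.

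The monocarboxylate transport list held 12 genes, 11 with an adjusted p, of which the authors' deposited tables called 1 higher without tetracycline, where 1.06% of all genes were called higher, and 0 with it, where 0.600% of all genes were called. At an unadjusted p under 0.05 there were 2 of 11 higher and 1 lower without and 2 higher with tetracycline, against 10.8% and 5.34% of all genes. The called gene was Slc5a12, a sodium-coupled carrier of lactate and related acids, with 7609 and 1969 normalized counts in the fasted and 1045 and 1040 in the fed libraries (log2 change 2.20, SE 0.47, authors' deposited table, adjusted p = 0.000501). With tetracycline it had 686 and 13054 against 1589 and 949 (log2 change 2.44, SE 0.97, authors' deposited table, adjusted p = 0.583). Slc5a12 was therefore high in the same fasted library of each table as Slc16a6, library 1 without and library 2 with tetracycline. Slc16a3, which encodes the lactate exporter MCT4, was also higher in those libraries than in the other fasted one, at 1977 beside 644 and at 2300 beside 362. Its fed libraries held 1042 and 2238 without and 1348 and 1143 with tetracycline, so that without tetracycline fed library 2 was the highest of the 4, unlike for Slc16a6 and Slc5a12. This likeness was noticed after the values were seen and was not tested. Without fasted library 1 the log2 ratio of Slc5a12 means without tetracycline was 0.92, and without fasted library 2 it was 2.87. With tetracycline it was 3.36 without fasted library 1 and -0.89 without fasted library 2, so that its direction there rests on that library.

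**Figure D3:**
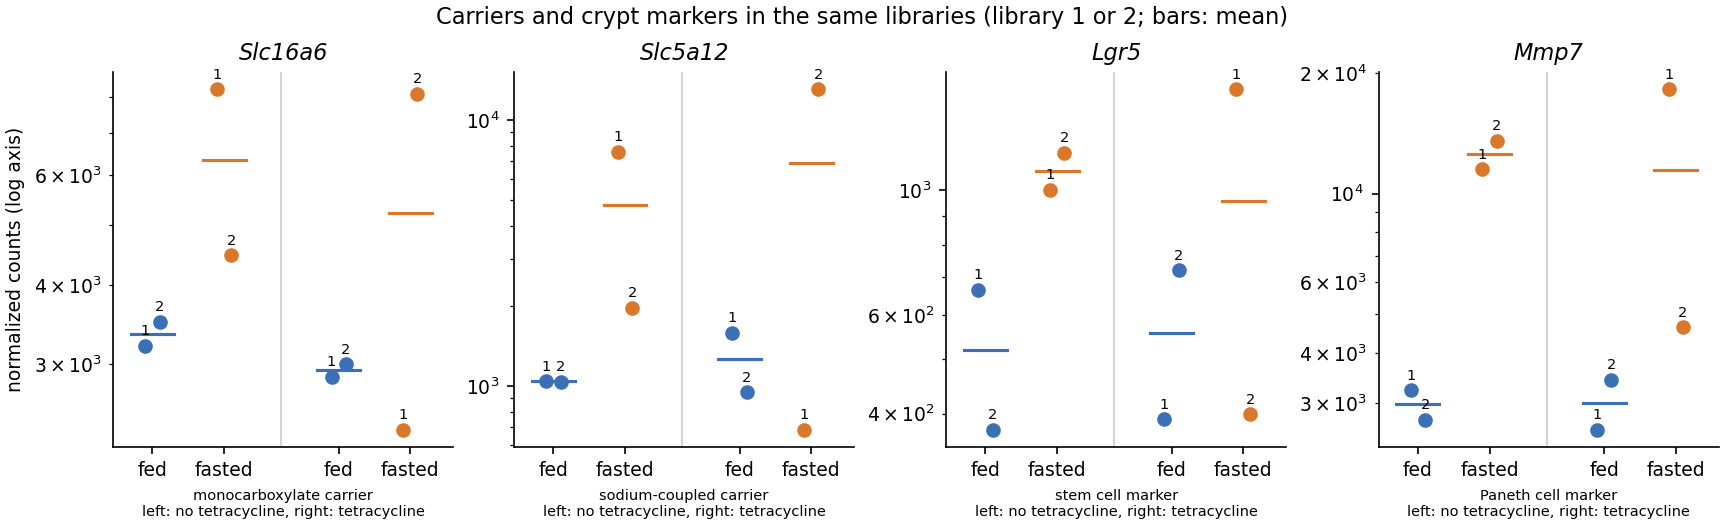
Normalized counts (log axis) of the carriers Slc16a6 and Slc5a12 and of the markers Lgr5 (stem cell) and Mmp7 (Paneth cell) per library, numbered 1 or 2, fed (blue) and fasted (orange), with bars at the mean. In the tetracycline table fasted library 2 is highest for both carriers (8086 and 13054) and fasted library 1 for both markers (1515 and 18214).

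The related carrier Slc5a8 had log2 changes of 2.12 and 1.95 in the authors' deposited tables (first without, then with tetracycline), with adjusted p of 0.561 and 0.253, and Slc16a13 had 0.84 and 0.91 (adjusted p = 0.140 and 0.993). With tetracycline Slc5a8 had 571 and 2258 normalized counts in the fasted and 351 and 383 in the fed libraries, and its log2 ratio of means was 0.64 without fasted library 2 and 2.62 without fasted library 1. Slc16a13 had 1751 and 1057 against 539 and 951 there, and its log2 ratio of means was 0.50 without fasted library 1 and 1.38 without fed library 2. Without tetracycline it was 0.53 without fasted library 2 and 1.09 without fasted library 1. Bsg, the chaperone that brings MCT1 to the membrane, had -0.26 and 0.37, and the mitochondrial pyruvate carrier genes Mpc1 and Mpc2 lay between -0.55 and 0.10. The median of the list was 0.42 without and 0.37 with tetracycline.

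Genes that sense or control ketone and fatty acid metabolism were a list of 10, 8 with an adjusted p, and 0 were called in either of the authors' deposited DESeq2 tables, against 2.27% of all genes without and 0.600% with tetracycline. At an unadjusted p under 0.05 there was 1 gene higher without tetracycline, and 1 higher and 1 lower with it, against 10.8% and 5.34% of all genes. Creb3l3, a transcription factor of fasting, had log2 changes of 1.03 and 1.22 (authors' deposited tables, adjusted p = 0.0773 and 0.625), and Ppara, the fatty acid receptor that drives ketogenesis in liver, 0.50 and 0.61 (adjusted p = 0.471 and 0.9999). With tetracycline Ppara had 2060 and 5503 normalized counts in the fasted and 2003 and 2959 in the fed libraries, and the log2 ratio of means was -0.27 without fasted library 2 and 1.15 without fasted library 1. Without tetracycline the log2 ratio of Creb3l3 means was 0.68 without fed library 1 and 1.5 without fed library 2. Ppard, which encodes a related receptor, had 11541 and 5770 normalized counts in the fasted and 11956 and 11379 in the fed libraries without tetracycline. With tetracycline it had 4740 and 4390 against 10584 and 9606. The groups overlapped without tetracycline, where the log2 ratio of means was -0.02 without fasted library 2 and -1.02 without fasted library 1. They stood apart with tetracycline, where the table gave a change of -1.14 (SE 0.35, authors' deposited table, adjusted p = 0.132). Without tetracycline the authors' change of Ppard was -0.43 (SE 0.34, adjusted p = 0.755). The difference between its 2 changes was -0.71 (95% interval -1.68 to 0.25), not called by the Wald test (unadjusted p = 0.147). The list's median was 0.24 without and 0.52 with tetracycline. The ketone receptor gene Hcar2 was read at 0 to 5.76 normalized counts per library.

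The supply of acetyl-CoA from fatty acids was represented by 14 genes, all with an adjusted p. Without tetracycline 4 of 14 were called higher and 0 lower in the authors' deposited table, where 1.06% of all genes were called higher. With tetracycline 0 were called by the authors' DESeq2 test, against 0.600% of all genes. At an unadjusted p under 0.05 there were 8 of 14 higher without and 6 of 14 with tetracycline, and 0 lower, against 10.8% and 5.34% of all genes in either direction. The change was above 0 for 13 and 14 of the 14, while 49.5% and 51.8% of all tested genes were below 0. The 4 called higher were Acadl, Hadhb, Hadha and Slc25a20, given as log2 changes from the authors' deposited table. Acadl, a long-chain acyl-CoA dehydrogenase, had 1.19 (adjusted p = 0.000735). Hadhb and Hadha, the subunits of the trifunctional protein, had 1.17 and 0.93 (adjusted p = 0.00214 and 0.0133). The carnitine carrier gene Slc25a20 had 1.07 (adjusted p = 0.00611). Cpt1a, the gatekeeper of mitochondrial fatty acid entry, had 0.88 and 0.80 (authors' deposited tables, adjusted p = 0.0678 and 0.9999). The median change was 0.65 without and 0.72 with tetracycline. Of the 38 genes of these 4 lists with an adjusted p in both tables, the Wald test of the difference between the fasting changes called 0, and 0 had an unadjusted p under 0.05, where 0.0228% and 1.05% of all genes did.

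**Figure D4:**
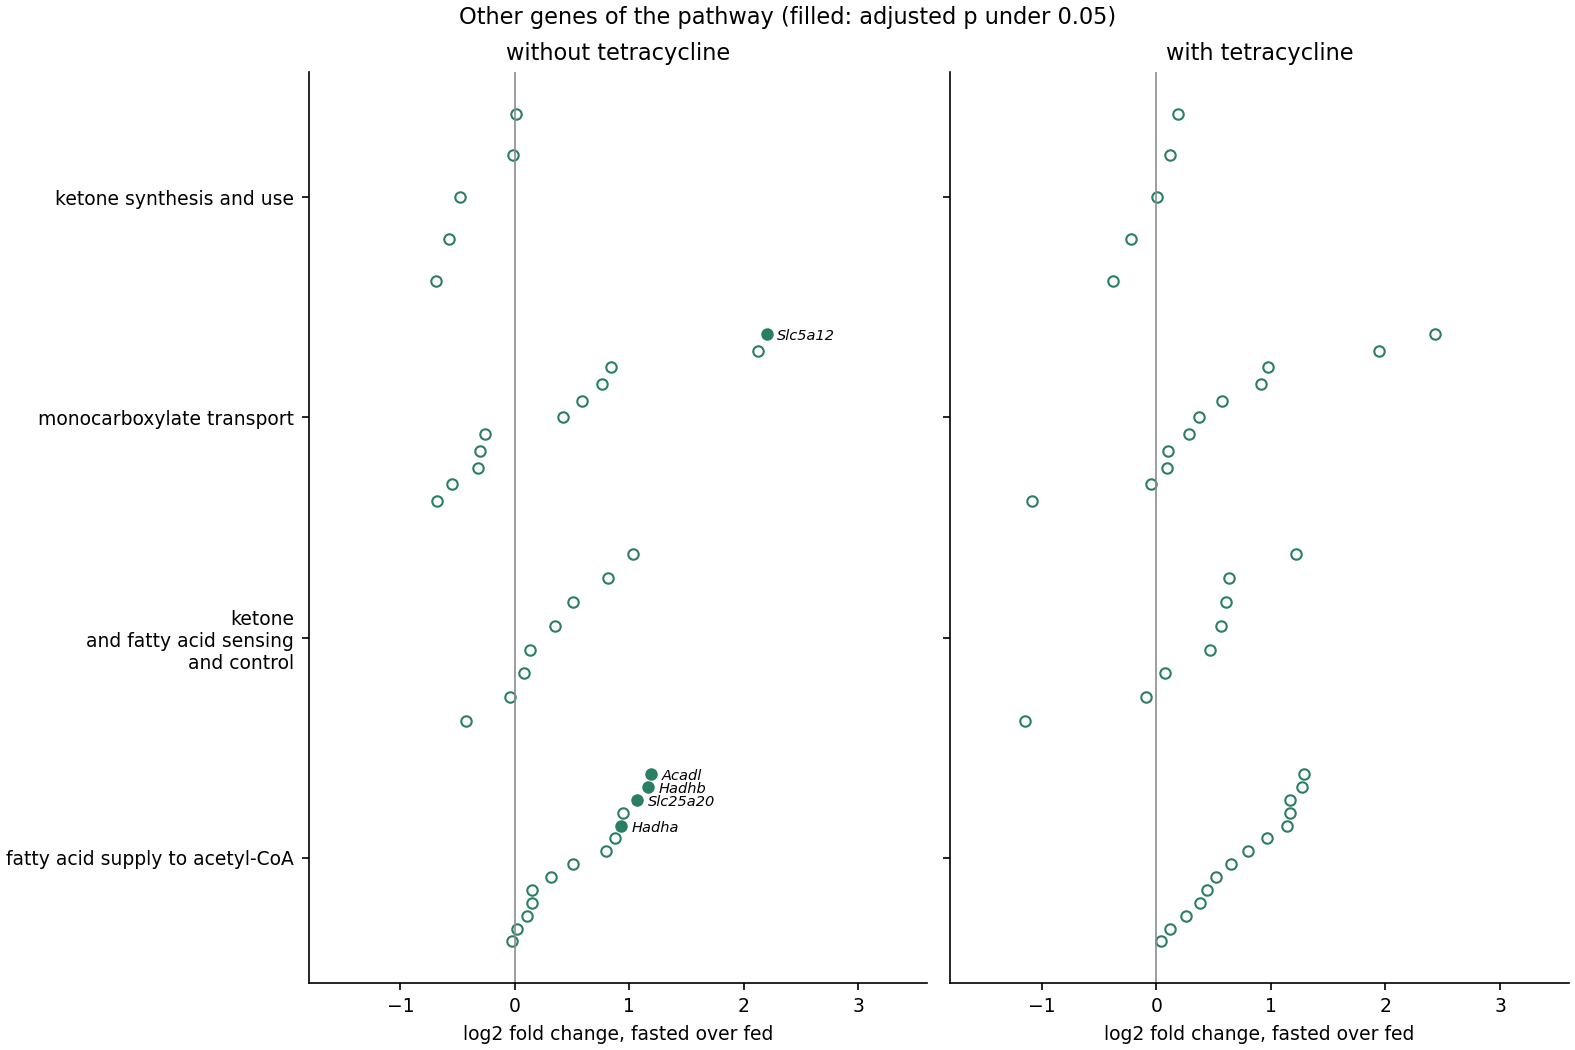
Log2 fold change of fasted over fed (horizontal axis) for the listed genes of the pathway that carry an adjusted p, without (left) and with (right) tetracycline, from the authors' deposited tables; filled points have an adjusted p under 0.05 and are named. Slc5a12 stands at 2.20 and 2.44 and is filled without tetracycline, and 13 and 14 of the 14 genes of fatty acid supply lie above 0.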

How the data were processed

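RNA-seq was measured in 4 groups with 1 labelled sample each. Per the submitters' processing notes, Salmon, DESeq2 and the build mm10 were used; versions and roles are not given in the sources used here. Per the file headers, the authors' deposited mean is a signal (counts divided by size factors, averaged over libraries), their fold change and its error are on the log2 scale, their statistic is a score, and their p-values are raw and Benjamini-Hochberg adjusted. Calls are the authors' adjusted p under 0.05.

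Whole counts behind the means were recovered by matching each mean to sums of whole counts times one step per library, and then to the deposited log2 change; the accepted member counts missed it by at most 2.54e-06, the next candidates by at least 0.000107. Since Salmon estimates counts, these may be rounded estimates. Of 202 other listed rows, 148 were recovered. No count model was run. The recovery was tested on simulated counts. The Wald test was run on simulated statistics drawn from the normal distribution that it assumes. That run therefore cannot show how well the test suits these data. Group means were rebuilt from mean and change, with pseudocount 1 for levels. Intervals are 95% normal intervals from the deposited error.

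The design assumed comparisons per table, as found. Members and lists were chosen with earlier results of these data known, so no count here is independent support. All 6 members are described; list genes are counted and some named, with part of the ketone synthesis list not reported here, and like genes are the 2 nearest by fasting change. Gene models are GENCODE release M21, whose identifiers matched those of the tables apart from the version; 0 per-sample columns were left unused. Alternatives were the threshold, centring, pseudocount (1 or 5), filters on low values, and single libraries left out. Python 3.11.15, pandas 2.3.3 and scipy 1.17.1 were used.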

Additional observations from a re-analysis of the deposited data

How the results depend on the processing

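At an adjusted p under 0.01 the number of the 6 genes called without tetracycline went from 1 to 0. The adjusted p of Oxct1 was 0.0230 to 0.0382 over the filters on low values and the centring, and 0.0513 to 0.0877 with tetracycline, where 0 of 6 were called under each. The difference of the fasting changes gave 0 calls of 6 under each alternative, also with its statistic divided by its spread over all genes (0.714). Leaving out single libraries took the median centred level of the 6 genes from -0.24 to -0.06 in fed mice and from -0.13 to 0.11 in fasted mice, the latter without fasted tetracycline library 1. The fatty acid supply genes called without tetracycline went from 4 to 3 at the stricter threshold, the change being Hadha (adjusted p = 0.0133), and to 5 with centring or over rows with a mean of at least 50. Of the values of the 6 genes, the count and median of lists, and listed genes with single libraries left out, 568 kept their call, lay within their spread or, for counts, within 1.5 times, and 45 moved further. Of the 6 genes Oxct1 lost its call at the stricter threshold, beside Hadha among the genes of the 4 pathway lists. Marker genes were not counted there, and the causes were not tested. Leaving out single libraries for the marker lists and for the medians was chosen after seeing the data; pancreatic acinar markers lower in fasted mice then went from 5 to 0 of 5 without and from 4 to 1 of 5 with tetracycline, in each case without fed library 2. Slc16a6 with tetracycline went from -0.31 to 1.46. No paired analysis was possible because the tables carry no replicate numbers and the labels list 1 sample per group. Precision is limited by 2 libraries a side, and for Bdh2 by 26 to 64 counts per library.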
